A study of Mus musculus with 8 samples.

Results

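The nuclei described here were 299 *Deptor*+ glutamatergic nuclei of the mouse cortex, chosen to hold the intratelencephalic (IT) neurons of layer 5. A nucleus was taken when it had at least 2 UMIs (unique molecular identifiers, each standing for 1 captured RNA molecule) of *Slc17a7*, the vesicular glutamate transporter of cortical excitatory neurons, and at least 2 of *Deptor*. It also had to carry at most 1 UMI of *Gad1* and *Gad2* together (GABA synthesis), at most 1 each of *Cux2* (upper layers), *Foxp2* and *Hs3st4* (layer 6), and at most 2 of *Tshz2* (near-projecting neurons). The 299 nuclei were 1.61% of 18582 glutamatergic nuclei and 0.550% of the 54343 nuclei kept.

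Single nuclei came from the frozen cortex of 8 naive C57BL/6J mice labelled as 6 weeks old, 1 library per mouse. The 4 Wt mice (Ifnar1+/+) and the 4 Ifnar1-/- mice each comprised 2 females (F1, F2) and 2 males (M1, M2). Ifnar1-/- mice lack a subunit of the type I interferon receptor in every cell of the body, and throughout development, so a difference in these neurons need not arise in them. The comparison of genotypes addressed what loss of the receptor does to gene expression in a cortical cell type, and sex was the other labelled condition.

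IT neurons send their axons within the telencephalon, to the opposite hemisphere and the striatum, whereas the neighbouring extratelencephalic (ET) cells of layer 5 reach the brainstem and spinal cord. Deptor binds mTOR, the kinase that couples nutrients and growth factors to protein synthesis, and inhibits it. Type I interferons bind Ifnar1 and Ifnar2, and the kinases Jak1 and Tyk2 then activate transcription factors such as Stat2, which switch on interferon-stimulated genes.

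Each library gave between 23 and 48 *Deptor*+ nuclei. The 4 Wt libraries held 39, 44, 28 and 47 (F1, F2, M1, M2), and the 4 Ifnar1-/- libraries held 43, 27, 48 and 23. As a share of glutamatergic nuclei this was 1.81%, 2.10%, 0.988% and 1.89% in Wt and 2.30%, 1.77%, 1.49% and 0.964% in Ifnar1-/- mice, and the 2 ranges overlapped throughout. The mean share was 1.69% ± 0.487 in Wt and 1.63% ± 0.555 in Ifnar1-/- mice (SD, n = 4 each, two-sided exact permutation test p = 0.857, Benjamini-Hochberg adjusted p = 0.914 over 3 measures, smallest possible p = 0.0286). A UMI threshold favours deeper nuclei. With nuclei of at least 5000 UMIs thinned to 5000 and the rule applied again, the shares were 1.31%, 2.12%, 1.33% and 0.943% in Wt and 1.33%, 1.44%, 1.33% and 1.37% in Ifnar1-/- mice. This left out 16 to 450 shallower glutamatergic nuclei a library, fewest in Ifnar1-/- F2 and most in Ifnar1-/- F1.

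The depth of the *Deptor*+ nuclei varied more between libraries than between genotypes. Their UMIs ran from 1597 to 27620 with a median of 11264, and the library medians lay between 7862 and 15509 in Wt and between 7142 and 17355 in Ifnar1-/- mice (exact permutation p = 0.914). Summed over its *Deptor*+ nuclei a library held 234399 to 616508 UMIs, and Wt M1 and Ifnar1-/- M2 held the fewest. Mitochondrial UMIs made up 0.154%, 0.215%, 0.310% and 0.440% in Wt and 0.237%, 0.112%, 0.260% and 0.749% in Ifnar1-/- mice (exact permutation p = 0.8 for genotype). The 4 males lay above the 4 females (0.440% ± 0.220 against 0.180% ± 0.0570, exact permutation p = 0.0286, the smallest possible, adjusted p = 0.0857). The share of *Deptor*+ nuclei was 1.33% ± 0.442 in males and 1.99% ± 0.251 in females (exact permutation p = 0.0857, adjusted p = 0.129). Library medians of UMIs averaged 9940 in males and 12959 in females (exact permutation p = 0.229). Any 2 libraries shared 3 to 29 cell barcodes among the nuclei kept, and no 2 libraries shared a barcode among *Deptor*+ nuclei.

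**Figure D1:**
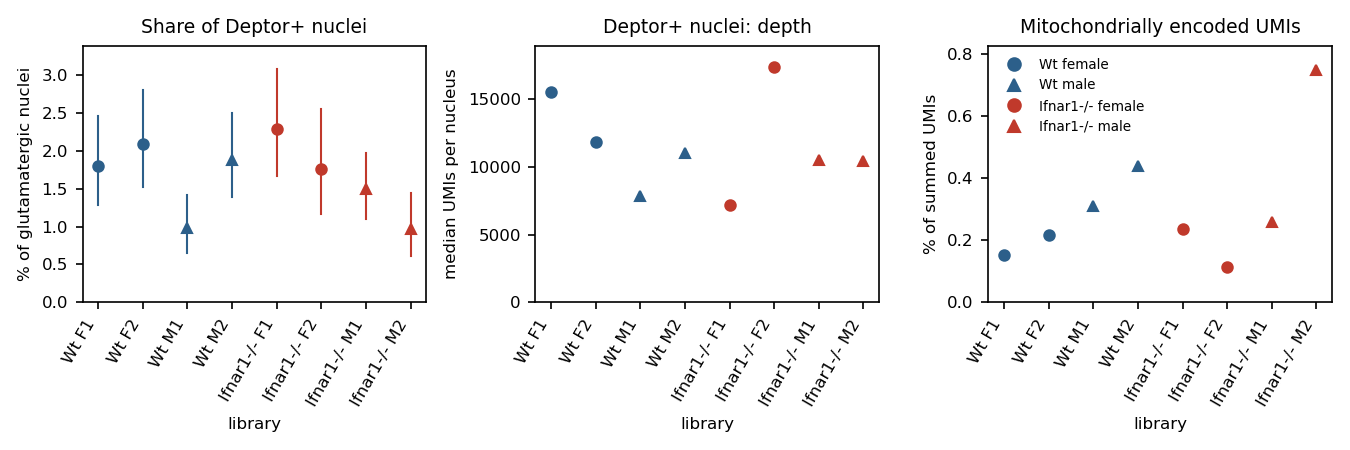
For the *Deptor*+ nuclei of each library (x axis) the panels give their share of glutamatergic nuclei (%, with exact 95% binomial intervals as bars), their median UMIs and the mitochondrial share of their UMIs (%), Wt in blue, Ifnar1-/- in red, circles for females and triangles for males. The genotypes overlap in all panels, and the mitochondrial share is highest in Ifnar1-/- M2 at 0.749%.

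The rule fixed the level of *Deptor* itself, so its values are a description. Of the 299 nuclei, 151 had exactly 2 *Deptor* UMIs, 66 had 3, 31 had 4, 21 had 5 and 30 had 6 or more, up to 15. *Etv1*, the ETS transcription factor of layer 5, was not used by the rule. The 151 nuclei with 2 *Deptor* UMIs held 93.2 *Etv1* CPM (UMIs per 1000000 summed UMIs) with an *Etv1* UMI in 43.7% of them, and 586 nuclei with 1 UMI that met every other criterion held 75.7 CPM with an *Etv1* UMI in 32.1%. *Il1rapl2*, on the layer 5 IT list, stood at 1227 CPM in the first and 803 CPM in the second.

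The limit on *Hs3st4* kept out nuclei with as much *Etv1* as those it let in. Of the nuclei that otherwise met the rule, 734 failed only on *Hs3st4*, more than the 299 that passed, and held 165 *Etv1* CPM with an *Etv1* UMI in 62.4% of them. *Deptor*+ nuclei with 1 *Hs3st4* UMI (109 nuclei) held 165 CPM, and nuclei with 2 (101 nuclei) held 181 CPM. Over all 299 members pooled, *Etv1* stood at 107 CPM. The *Slc17a7* limit divided 69 nuclei with 2 UMIs (84.4 *Etv1* CPM) from 69 with 1 UMI (108 CPM). The other limits were narrow, with 119 nuclei failing only on *Cux2*, 33 only on *Tshz2*, 21 only on *Foxp2* and 9 only on *Gad1* and *Gad2*.

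The layer 5 IT label was borne out in part by genes outside the rule, compared here with the 18283 other glutamatergic nuclei of the same libraries as a description without a test. These others include the nuclei left out for *Cux2*, *Foxp2*, *Hs3st4* or *Tshz2*. Low levels of genes expressed together with those therefore follow in part from the rule. *Etv1* averaged 110 CPM in *Deptor*+ nuclei and 76.9 CPM in the others and was higher in 7 of 8 libraries. *Il1rapl2*, an interleukin-1 receptor accessory-like protein on the layer 5 IT list, averaged 1604 against 558 CPM and was higher in all 8. Of 7 markers of IT neurons of any layer, 2 were higher and 1 was lower in all 8 libraries. *Slc30a3*, the synaptic zinc transporter, stood higher in 7 of 8 (86.6 against 72.4 CPM), and *Cux1*, a factor of upper layers, was the one lower (74.4 against 180 CPM). *Rorb* (134 against 175 CPM), *Parm1* (33.8 against 43.5 CPM) and *Col6a1* (28.3 against 35.9 CPM) stood lower in 7, 6 and 6 of 8 libraries. *Endou*, *Batf3* and *Tcap*, with 8, 7 and 6 UMIs in all, were lower in 6, 5 and 6. *Hsd11b1* was higher in 4 and *S100b* in 5. Of the 10 genes on the layer 5 IT list only *Il1rapl2* was higher in all 8 libraries, so the list did not move as one.

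Markers of other classes were lower in part. For upper-layer, layer 6 and near-projecting markers the limits of the rule favoured this, so their low levels do not test the label. Of 7 layer 2/3 markers 6 were lower in all 8 libraries, as were all 6 near-projecting markers, 3 of 6 layer 6 corticothalamic markers, 4 of the 5 layer 6b markers in the files, 2 of 6 layer 4 markers, 2 of 9 ET markers and 3 of 6 claustrum markers. The summed level of 6 hippocampal markers was higher in all 8 libraries (140 to 269 against 93.3 to 154 CPM), and that of 7 striatal markers in 7 of 8 (809 to 1446 against 749 to 1225 CPM). *Dkk3* made up most of the first sum (203 against 116 CPM), and *Wfs1* and *Mndal* were lower in all 8. *Pde10a* made up most of the second (1073 against 957 CPM). *Rgs9* was lower in all 8 libraries, *Drd1* and *Drd2* in 7, *Adora2a* and *Ppp1r1b* in 6, and *Rarb* was higher in 5. *Tle4*, a co-repressor of corticothalamic neurons, averaged 31.3 against 157 CPM. *Bcl11b*, the Ctip2 factor of ET neurons, averaged 67.0 against 122 CPM and was lower in all 8 libraries. *Fezf2*, which specifies ET neurons, ran from 1.80 to 28.0 CPM over the libraries and was higher than in the others in 5 of 8, and *Gprin3* was higher in 7 of 8 libraries (53.7 against 38.2 CPM). These nuclei are therefore called *Deptor*+ here and not by layer. The name stands for the whole rule, since the other glutamatergic nuclei also hold nuclei with at least 2 *Deptor* UMIs. Among those are the 734 that failed only on *Hs3st4* and the 119 that failed only on *Cux2*.

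**Figure D2:**
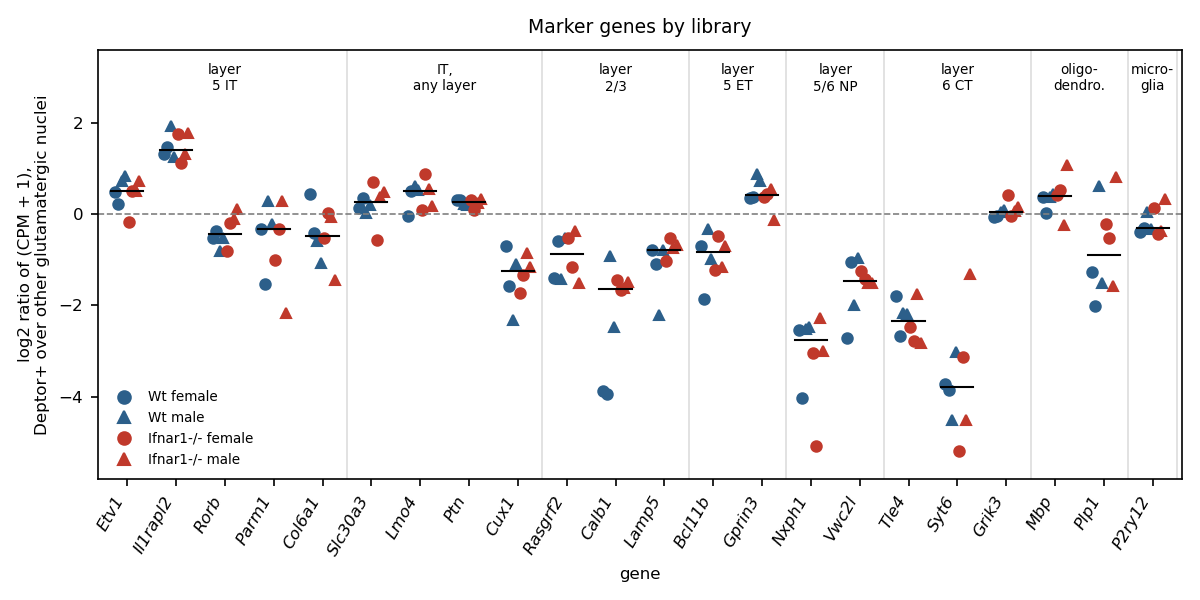
For each marker gene (x axis, grouped by the class it marks) the y axis gives the log2 ratio of (CPM + 1) in *Deptor*+ nuclei over the other glutamatergic nuclei, 1 point per library with a line at the median (blue Wt, red Ifnar1-/-, circles females, triangles males; NP near-projecting, CT corticothalamic). *Il1rapl2* lies above 0 in all 8 libraries, and *Cux1*, *Tle4* and *Syt6* lie below 0 in all 8.

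Within the 299 nuclei *Etv1* was not uniform. At least 1 *Etv1* UMI was found in 148 nuclei (49.5%), against 29.1% of the other glutamatergic nuclei and 8.55% of 5861 oligodendrocyte nuclei. Median depths were 11264, 9769 and 2089 UMIs. Thinned to 2000 UMIs the 3 shares were 19.8%, 10.6% and 7.02%, leaving out 1, 119 and 2656 shallower nuclei. Glutamatergic nuclei of the upper layers and of layer 6 (corticothalamic), thinned alike, gave 4.38% and 6.96%. Nuclei with *Etv1* and *Rorb*, a nuclear receptor of layers 4 and 5, numbered 68, *Etv1* alone was found in 80, *Rorb* alone in 49 and neither in 102. *Fezf2* was found in 43 nuclei, of which 28 also had *Etv1*. *Il1rapl2* had a median of 18 UMIs in nuclei with *Etv1* and 10 in nuclei without it, at median depths of 11370 and 10740 UMIs, and was at 0 in 42 nuclei.

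Ranked by the ratio in the library where it was smallest, and leaving out the genes of the rule, *Il1rapl2* was the gene that most set these nuclei apart from the other glutamatergic nuclei, followed by *Dkk3*, a secreted Dickkopf-family protein (203 against 116 CPM). *Il1rapl2* was not particular to them. The 734 nuclei that failed only on *Hs3st4* held 2238 *Il1rapl2* CPM, against 1505 CPM over the 299 members pooled. *Dkk3* is on the hippocampal list, and in layer 6 corticothalamic nuclei it stood at 201 CPM, with a UMI in 74.2% of them and in 72.6% of *Deptor*+ nuclei. *Ntm*, the adhesion molecule neurotrimin (3251 against 1906 CPM), *Sulf2*, a heparan sulfatase (131 against 71.3 CPM), *Tspan5*, a tetraspanin (948 against 557 CPM), and *Cdh10*, a cadherin (791 against 480 CPM), were also higher in all 8 libraries. The lowest outside the rule were *Sema5a*, a semaphorin (2.29 against 40.5 CPM), the noncoding *Gm26883* (15.2 against 241 CPM), *Nxph1* (5.62 against 46.7 CPM) and *Zfpm2*, a GATA cofactor (40.5 against 323 CPM). Of 4601 genes with at least 20 CPM in every library of *Deptor*+ nuclei, 213 (4.63%) were higher in all 8 libraries, and of 5814 with that level in every library of the others 380 (6.54%) were lower in all 8.

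Markers of non-neuronal cells were present at low levels. The summed CPM of 6 oligodendrocyte markers was 96.8 to 751 in *Deptor*+ nuclei, 131 to 385 in the other glutamatergic nuclei and 21348 to 28105 in oligodendrocyte nuclei. Of the list's genes none was at 0 over all members, whereas *Gfap* of astrocytes and *Cldn5* of vessels were. *Mbp* was higher than in the other glutamatergic nuclei in 7 of 8 libraries (123 against 88.5 CPM), and the oligodendrocyte sum in 3. The sum of 5 astrocyte markers was higher in 7 of 8 (10.5 to 38.1 against 9.71 to 13.6 CPM). Among these *Aldh1l1* was higher in 7 (19.7 against 7.85 CPM), and *Gfap*, *Aqp4* and *Gja1* were lower in 8, 7 and 5. The oligodendrocyte sum ran from 108 to 505 CPM in Wt and from 96.8 to 751 CPM in Ifnar1-/- mice, so it did not separate the genotypes. The microglia list of 5 genes summed to 62.7 to 160 CPM in Wt and 49.4 to 158 CPM in Ifnar1-/- mice, and 8 GABAergic markers to 66.2 to 146 and 45.6 to 200 CPM. Members with at least 2 UMIs of another class's list numbered 93 of 299.

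*Ifnar1* itself was read from few molecules. Its UMIs numbered 9, 13, 3 and 12 in Wt and 5, 4, 6 and 4 in Ifnar1-/- mice, or 17.8 ± 5.93 and 12.9 ± 3.92 CPM (SD, n = 4), and the groups overlapped. The gene was under the filter on low counts and was not tested. The libraries count the 3′ ends of transcripts, and the labels do not say which part of the gene was deleted, so these counts do not check the genotype. *Ifnar2* gave 3, 8, 3 and 6 UMIs in Wt and 1, 3, 8 and 0 in Ifnar1-/- mice.

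Genotype changed 1 of 6923 genes tested (0.0144%) at an adjusted p under 0.05 in edgeR, and 160 (2.31%) had an unadjusted p under 0.05. With sex as a covariate edgeR also called 1, and 282 (4.07%) had an unadjusted p under 0.05. DESeq2 called 1 as well. The gene was *Gm43713* (chromosome 3, 88845025 to 88900001, minus strand, GRCm38), an antisense transcript that lies within *Gon4l* (88835231 to 88910103, plus strand). It gave 47, 49, 16 and 24 UMIs in Wt and 104, 126, 111 and 53 in Ifnar1-/- mice. Scaled by edgeR's TMM factors, as are the CPM of all tested genes below, these were 76.6, 94.1, 61.5 and 40.1 CPM in Wt and 320, 272, 198 and 225 CPM in Ifnar1-/- mice. All 4 Ifnar1-/- libraries lay above all 4 Wt libraries (log2 fold change 1.89, SE 0.25, edgeR adjusted p = 0.0123). The log2 fold change lay between 1.68 and 2.28 in all 21 alternatives. The call was met in 14 of them (adjusted p 2.77e-12 to 0.263), and it was lost without Wt F1, Wt M1, Ifnar1-/- F1, Ifnar1-/- F2 or Ifnar1-/- M2, without the 2 smallest libraries and without possible doublets. *Gm43713* was also lower in males (-0.61, edgeR adjusted p = 0.0402).

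*Gon4l*, a nuclear transcriptional regulator, gave higher values in every Ifnar1-/- library without passing the test. Its CPM were 96.2, 117, 131 and 112 in Wt and 277, 224, 218 and 157 in Ifnar1-/- mice, so the groups did not overlap (log2 fold change 0.97, SE 0.19, edgeR adjusted p = 0.484). It passed in 2 of 21 alternatives, with no filter on low counts and with *Deptor* at 1 or more UMIs (adjusted p 0.0244 to 1.0 over the 21). Exons of *Gm43713* and *Gon4l* overlap by 264 bases on opposite strands. Whole transcripts were counted, so the full span of *Gm43713* lay within the span counted for *Gon4l*. Whether the counting used strand is not given in the sources used here, and without strand reads of the 2 genes cannot be told apart. In the other glutamatergic nuclei of the same 8 mice *Gm43713* rose by 1.68 (edgeR adjusted p = 0.0247) and *Gon4l* by 1.03 (adjusted p = 0.0012) on the log2 scale. A test of the difference between classes did not separate these from the values in *Deptor*+ nuclei (interaction 0.22, SE 0.17, for *Gm43713* and -0.08, SE 0.16, for *Gon4l*, edgeR adjusted p = 0.998 for both).

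*Cntfr*, the receptor of ciliary neurotrophic factor, which signals through JAK-STAT, gave lower values in every Ifnar1-/- library without passing the test. Its CPM were 62.0, 65.3, 84.5 and 63.5 in Wt and 15.4, 34.5, 26.7 and 29.7 in Ifnar1-/- mice (log2 fold change -1.32, SE 0.27, edgeR adjusted p = 0.484). It passed in 1 of 21 alternatives, with no filter on low counts (adjusted p 0.0298 to 1.0 over the 21). The noncoding *Gm26848* gave 1332, 1838, 1413 and 1433 CPM in Wt and 2323, 2411, 2236 and 2099 CPM in Ifnar1-/- mice (log2 fold change 0.59, SE 0.13, edgeR adjusted p = 0.534). For both genes the groups did not overlap, which held for 120 of the 6923 genes (1.73%). In the other glutamatergic nuclei both passed the test (-1.23 with adjusted p = 0.0247 for *Cntfr* and 0.63 with adjusted p = 0.0456 for *Gm26848*, edgeR), where 10 of 17933 genes (0.0558%) were called. *Gon4l*, *Cntfr* and *Gm26848* are named here because of their values.

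3 genes called in the other glutamatergic nuclei were too rare in *Deptor*+ nuclei to pass the filter. The noncoding *Gm12576* gave 12, 6, 2 and 10 UMIs in Wt and none in the 4 Ifnar1-/- libraries, which is at least 7.91-fold lower against a floor of 3 counts over the group. *Gm15446* gave 21, 10, 10 and 21 UMIs in Wt and 4, 1, 2 and 2 in Ifnar1-/- mice. *Pkd1l2*, a polycystin-like membrane protein, gave 6, 4, 2 and 7 UMIs in Wt and 2, 1, 1 and 0 in Ifnar1-/- mice. In the first 2 the genotypes did not overlap in UMIs, and in *Pkd1l2* they met at 2.

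**Figure D3:**
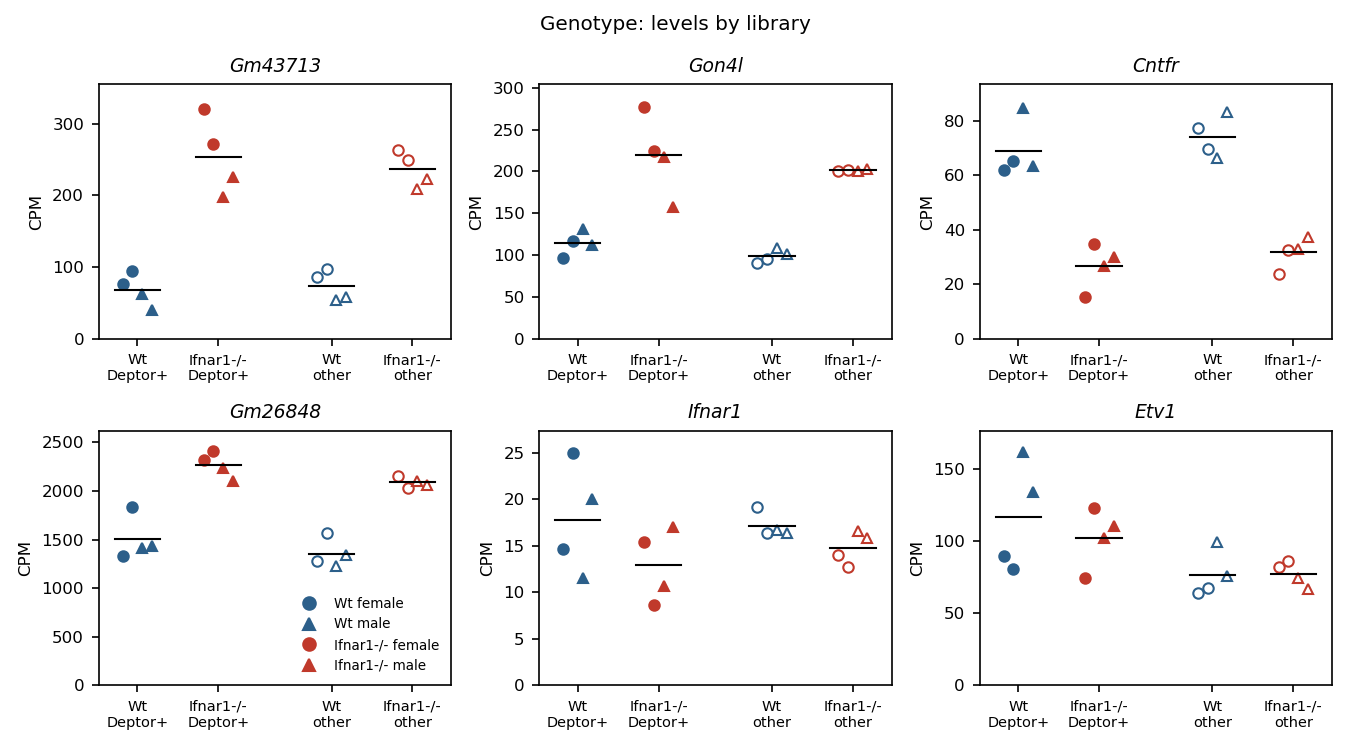
CPM per library (y axis) for 6 genes in *Deptor*+ nuclei (filled) and the other glutamatergic nuclei (open) of Wt (blue) and Ifnar1-/- mice (red), with a line at each group mean. *Gm43713* is higher in all 4 Ifnar1-/- libraries (198 to 320 CPM against 40.1 to 94.1), and *Ifnar1* and *Etv1* overlap between genotypes.

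Interferon-response genes gave few UMIs in either genotype. Of 57 interferon-response genes in the files 17 had no UMI in the 299 nuclei, 26 had 1 to 9 and 14 had 10 or more. Together they gave 284, 202, 365 and 286 CPM in Wt and 301, 305, 296 and 316 CPM in Ifnar1-/- mice, and the Ifnar1-/- values lay inside the Wt range. 3 passed the filter and none was called, *Stat2* with a log2 fold change of 0.21, the ubiquitin ligase *Herc6* with 0.16 and the RNA-editing enzyme *Adar* with -0.05. At this depth a difference in the rarer members was not detectable.

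No gene of any other pathway list passed the test of genotype. In the JAK-STAT list 2 of 6 tested genes had positive and 4 negative fold changes (median -0.07), among them *Tyk2*, *Jak2* and the phosphatase *Ptpn11*. Of 27 mTOR pathway genes 15 were positive and 12 negative (median 0.04), with *Mtor* itself at 0.34, *Mapkap1* of mTORC2 at 0.27 and the S6 kinase *Rps6kb2* at -0.36. *Etv1* stood at 89.7, 80.7, 161 and 134 CPM in Wt and 74.0, 123, 102 and 110 CPM in Ifnar1-/- mice (log2 fold change -0.14, SE 0.24). Over all genes tested 50.9% were positive and the median was 0.0049.

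Genes of neuronal function were not called either. Voltage-gated channels divided 20 to 20 (median -0.00101), presynaptic release genes 13 to 13 (-0.01), ionotropic glutamate receptors 10 to 17 (-0.03), projection neuron transcription factors 11 to 14 (-0.09) and neuromodulator receptors 7 to 5 (0.10). Axon guidance and adhesion genes divided 32 to 13 (0.12), but 24 to 22 (0.013) without Ifnar1-/- F2 and 23 to 20 (0.017) within males. All 5 metabotropic glutamate receptors tested were positive (0.16), and 3 of 5 without possible doublets. Of 16 activity-regulated genes 15 were negative, with a median of -0.40. That median ran from -0.72 within females to -0.071 with *Etv1* required, and was -0.072 within males, -0.13 without possible doublets, -0.22 without Ifnar1-/- F2, -0.24 without Ifnar1-/- F1 and -0.70 without Ifnar1-/- M1. Examples were the AP-1 factor *Junb* (-0.94), the neurotrophin *Bdnf* (-0.48), *Egr1* (-0.52) and *Nr4a1* (-0.46). *Junb* illustrates their spread, with 42.4, 11.5, 42.2 and 50.1 CPM in Wt and 6.16, 2.16, 41.0 and 21.2 CPM in Ifnar1-/- mice. None of the 16 had an unadjusted p under 0.05, and up to 4 did in the alternatives (within females and without Ifnar1-/- M1). Nuclear oxidative phosphorylation genes divided 24 to 17 (0.06), but 16 to 26 (-0.077) without Wt F1, 20 to 21 (-0.0024) without Wt F2 and 17 to 23 (-0.15) without Ifnar1-/- M1. Mitochondrially encoded genes divided 6 to 5 (0.03), and single libraries decided that split, with 10 to 1 (0.52) without Wt M2, 11 to 0 (0.34) without Ifnar1-/- F2, 5 to 6 (-0.25) without Wt F1 and 0 to 11 (-0.49) without Ifnar1-/- M2.

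**Figure D4:**
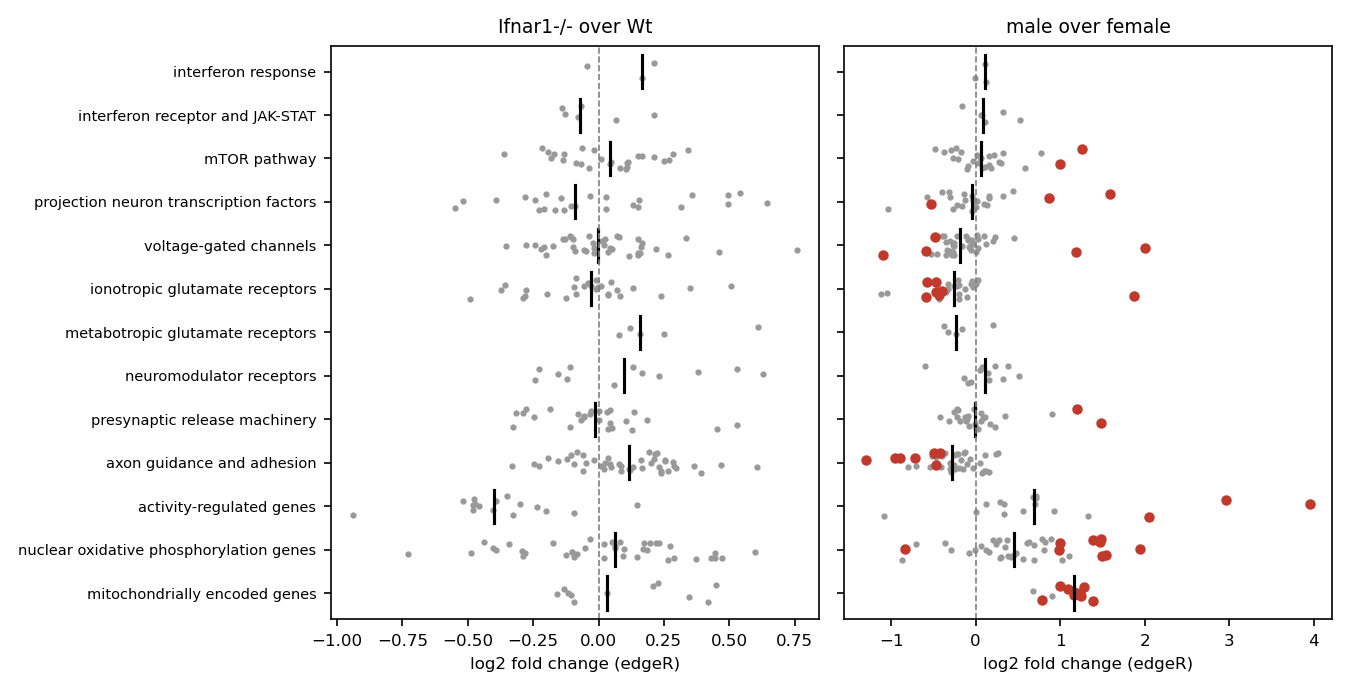
Log2 fold changes (x axis, edgeR) of the tested genes of each list (points, 1 per gene, red where called) with the list median as a line, for genotype (Ifnar1-/- over Wt, left) and sex (male over female, right). For genotype no listed gene passed the test, and for sex the mitochondrially encoded genes have the highest median (1.16).

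More genes were called for sex than for genotype in the same nuclei. In a fit with genotype as a covariate 561 of 6923 genes were called (8.1%), 314 higher (4.54%) and 247 lower (3.57%) in males. In the other glutamatergic nuclei of the same mice 5169 of 17933 genes (28.8%) were called for sex, so the difference was not limited to *Deptor*+ nuclei. In *Deptor*+ nuclei DESeq2 called 271, 93 were called within Wt and 89 within Ifnar1-/- mice, and 260 without possible doublets. That last fit held 192 nuclei and tested 4203 genes. Leaving out 1 library gave 220 to 626, with 316 without Wt F2, 255 without Wt M2 and 220 without Ifnar1-/- M1. The labels give no date of nuclei preparation or sequencing run, so sex and any difference in handling between the sexes cannot be told apart. Mitochondrial UMIs were also higher in all 4 males, and their part in the calls was not tested.

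The sex chromosomes matched the labels. *Xist*, the RNA that silences an X chromosome, gave 719 and 1012 CPM in Wt females, 934 and 732 CPM in Ifnar1-/- females and 0 in all 4 males. *Eif2s3y*, a Y-linked translation factor, gave 84.5, 98.5, 144 and 127 CPM in the 4 males and 0 in all females.

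The genes higher in males were shorter at the median than those lower in males. The 314 had a median span of 14196 bases and 98.1% were protein coding, against 46361 bases and 93.4% over all genes tested. The 247 lower genes had a median span of 54540 bases and 47.8% were noncoding.

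*Pcsk1n*, an inhibitor of prohormone convertase, gave 62.0, 28.8, 30.8 and 34.5 CPM in the 4 females and 188, 230, 207 and 191 CPM in the 4 males (log2 fold change 2.37, SE 0.22, edgeR adjusted p = 9.13e-07). *Cck*, the neuropeptide cholecystokinin, gave 271, 161, 194 and 138 CPM in females and 718, 900, 1211 and 493 CPM in males (2.15, SE 0.23, edgeR adjusted p = 4.07e-06). In both genes every male lay above every female. In the other glutamatergic nuclei of these mice the differences were 2.31 for *Pcsk1n* and 2.29 for *Cck*. *Ly6h* (1.92), *Ssbp4* (3.28), *Tmem158* (3.35) and the noncoding *Gm27032* (3.13) rose as well.

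The genes of smallest p that fell in males included 3 noncoding RNAs besides *Xist* and *Tsix*. *Glg1*, a Golgi glycoprotein, gave 512, 640, 669 and 553 CPM in females and 219, 220, 239 and 276 CPM in males (log2 fold change -1.31, SE 0.14, edgeR adjusted p = 4.07e-06). *Gm44511* (-1.77), the noncoding *4930445B16Rik* (-1.86), *Gm48091* (-1.16) and *Rmst* (-1.54), and *Leng9* (-1.84) fell too, and the sexes did not overlap in any of them. Sexes that did not overlap were found for 888 genes (12.8%).

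Of 40 voltage-gated channel genes 2 rose and 3 fell in males, beside 4.54% higher and 3.57% lower over all genes tested. With 1 library left out 2 to 6 were called, 3 without Wt F2 and 2 without Wt M1, Ifnar1-/- F2 or Ifnar1-/- M1. *Hcn2*, a subunit of the hyperpolarization-activated channel, gave 14.7, 19.2, 15.4 and 15.1 CPM in females and 57.6, 73.5, 64.2 and 59.5 CPM in males (2.01, SE 0.27, edgeR adjusted p = 8.04e-05). The calcium channel *Cacna1e* (-0.48) and the potassium channels *Kcnn3* (-1.10) and *Kcnd3* (-0.58) fell. Of 27 ionotropic glutamate receptor genes 6 fell and 1 rose (median -0.26). With 1 library left out 1 to 7 were called, 1 without Ifnar1-/- M1, 3 without Wt F2 or Ifnar1-/- F2 and 4 without Wt M1 or Wt M2. The AMPA receptor subunit *Gria2* gave 2089, 1950, 2585 and 1889 CPM in females and 1498, 1443, 1414 and 1257 CPM in males (-0.59, SE 0.12, edgeR adjusted p = 0.00358). *Gria3* (-0.43) and the NMDA receptor subunit *Grin2b* (-0.40) fell and the AMPA receptor auxiliary protein *Cnih2* (1.87) rose.

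Of 45 axon guidance and adhesion genes 7 fell in males and none rose (median -0.28), beside 3.57% lower over all genes. Without Ifnar1-/- M1 the count was 1, without Wt M2 3 and without Wt F2 4. *Cdh13*, a cadherin anchored without a cytoplasmic domain, gave 336, 182, 234 and 421 CPM in females and 84.5, 149, 146 and 63.7 CPM in males (-1.29, SE 0.25, edgeR adjusted p = 0.00299). The semaphorin co-receptor *Nrp1* (-0.89) and the ephrin receptor *Ephb2* (-0.96) fell likewise. The shares called in the next 3 lists are to be read beside 8.1% over all genes. In the mTOR list 2 of 27 rose, *Rheb*, the GTPase that activates mTORC1 (1.00), and the translation repressor *Eif4ebp2* (1.25). Of 25 transcription factors *Lmo4* (0.86) and *Pou3f2* (1.59) rose and *Sox5* (-0.53) fell. Of 26 presynaptic genes 2 rose, *Cplx2* (1.20) and *Rab3a* (1.48). Several of the sex calls on listed genes were lost in many of the 16 alternatives: *Sox5* was called in 5, *Kcnd3* and *Grin2b* in 6, *Cacna1e*, *Eif4ebp2* and *Rab3a* in 8, *Gria3* and *Rheb* in 9, *Cnih2* in 10 and *Nrp1* in 11.

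Mitochondrial transcripts were higher in males in 9 of 11 mitochondrially encoded genes tested (median 1.16), beside 4.54% higher over all genes tested. The count was 3 without Wt M2, 5 without Ifnar1-/- F2 or Ifnar1-/- M2 and 1 by DESeq2, and the median stayed between 0.75 and 1.40 in the 16 alternatives. The cytochrome oxidase subunit *mt-Co3* gave 342, 471, 561 and 246 CPM in females and 707, 890, 617 and 1678 CPM in males (1.24, SE 0.25, edgeR adjusted p = 0.00435). These transcripts are made outside the nucleus, and the part of the nuclei preparation in their level was not tested. Of 41 nuclear oxidative phosphorylation genes 8 rose and 1 fell (median 0.46), beside 4.54% higher and 3.57% lower over all genes. *Cox8a* (1.55) and *Cyc1* (1.48) were among those higher and *Atp5o* (-0.84) was the one lower. In this list 2 were called without Ifnar1-/- M1 and 5 without Wt M2 or Ifnar1-/- F1. Of 16 activity-regulated genes 3 rose (median 0.69), beside 4.54% higher over all genes. They were *Vgf* (2.05), *Jund* (3.96) and *Ier5* (2.96), and the count was 5 without Wt F1, 6 without Wt M1 and 0 without possible doublets.

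**Figure D5:**
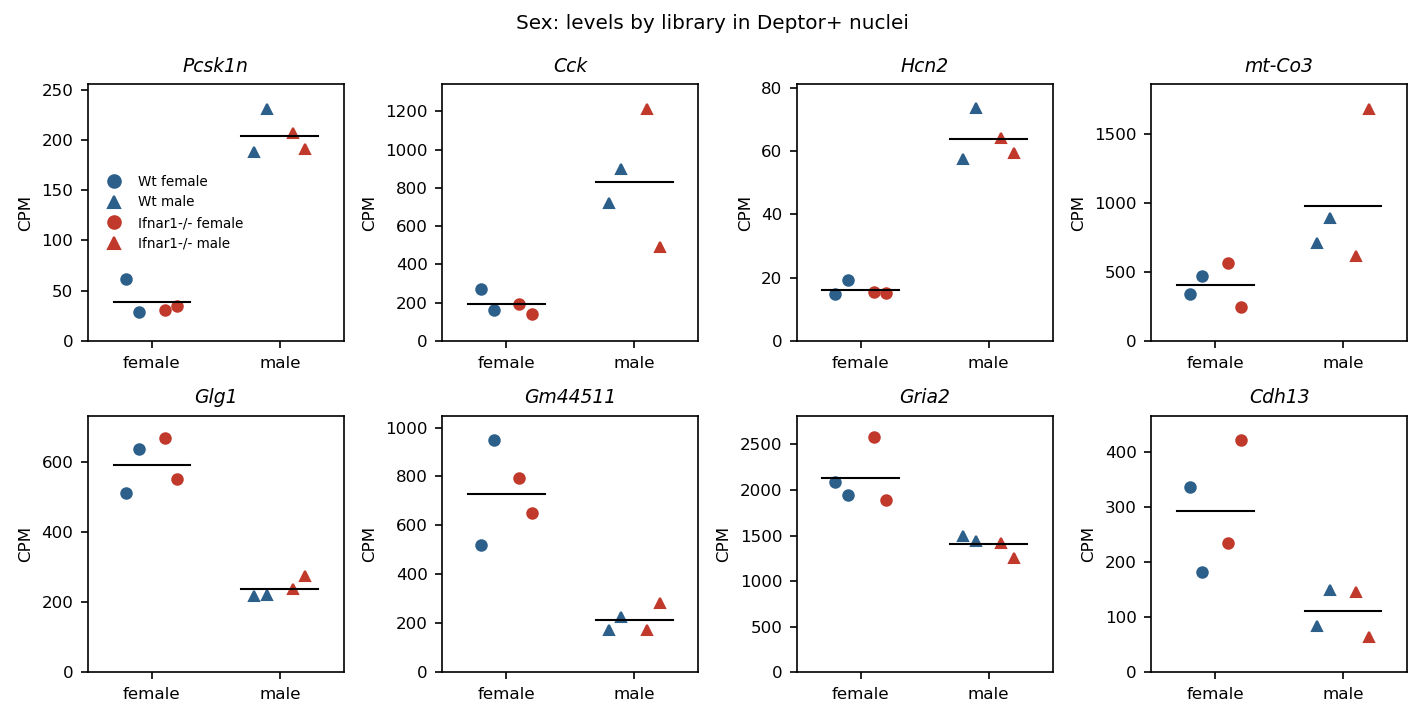
CPM per library (y axis) in *Deptor*+ nuclei of females (circles) and males (triangles), Wt in blue and Ifnar1-/- in red, with a line at each mean, for 4 genes higher and 4 lower in males. The sexes do not overlap in any of the 8 genes (*Hcn2* 14.7 to 19.2 CPM in females and 57.6 to 73.5 CPM in males).

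The difference between genotypes depended on sex for 1 of 8159 genes (0.0123%). *Abi3bp*, an extracellular matrix protein, gave 53.8 and 36.5 CPM in Wt females, 7.68 and 11.7 CPM in Wt males, 30.8 and 30.2 CPM in Ifnar1-/- females and 82.0 and 80.7 CPM in Ifnar1-/- males (interaction 3.52 on the log2 scale, edgeR adjusted p = 0.0391). It was found in 46 nuclei, with up to 19 UMIs in a single one. With 1 library left out the *Abi3bp* call was kept without Wt F2 or Ifnar1-/- M2 and lost in the other 6 cases (adjusted p 0.00505 to 0.284), with interactions of 3.19 to 3.95. No gene at all was called without Wt M1, Wt M2, Ifnar1-/- F2 or Ifnar1-/- M1, 2 were called without Wt F2, and the 1 gene called without Wt F1, like the 1 without Ifnar1-/- F1, was not *Abi3bp*.

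Differences between genotypes that themselves differed from those in the other glutamatergic nuclei were found for 3 of 15684 genes (0.0191%). In each of the 3 a single nucleus held 19 to 58 UMIs. *AC121788.1*, a noncoding RNA, gave 139, 255, 4 and 47 UMIs in Wt and 56, 27, 15 and 16 in Ifnar1-/- mice, with 58 in a single nucleus (interaction -1.13, edgeR adjusted p = 9.17e-05). *Tmprss9*, a membrane serine protease, gave 1, 0, 1 and 2 UMIs in Wt and 5, 31, 1 and 1 in Ifnar1-/- mice, 20 of them in a single nucleus (3.53). *Ninj2*, a ninjurin adhesion protein, gave 0, 1, 2 and 1 UMIs in Wt and 4, 1, 1 and 27 in Ifnar1-/- mice, 19 of them in a single nucleus (3.49). In the last 2 genes 1 library carried most of the UMIs. With 1 library left out, 4 to 16 genes were called, with 9 without Wt F1, 12 without Wt F2 or Wt M2, 8 without Wt M1, 7 without Ifnar1-/- F2 or Ifnar1-/- M2 and 16 without Ifnar1-/- M1.

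The sex difference itself differed between *Deptor*+ and other glutamatergic nuclei for 10 of 15684 genes (0.0638%), in a test added after the data were seen. *Rmst*, a long noncoding RNA of neurogenesis, gave 108, 152, 114 and 188 CPM in females and 38.4, 60.1, 41.0 and 46.7 CPM in males, while in the other glutamatergic nuclei its male difference was -0.05 on the log2 scale (interaction -1.51, edgeR adjusted p = 3.65e-10). *Cdh13* also fell more in *Deptor*+ nuclei, with -0.34 in the others (interaction -0.93, edgeR adjusted p = 2.48e-06). *Rmst* was found in 81 nuclei with up to 35 UMIs in a single one, and *Cdh13* in 123 nuclei with up to 75.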

How the data were processed

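Nuclei were sequenced from 8 cortical libraries with the 10x Single Cell 3′ v3 chemistry. The authors deposited raw UMI counts per gene and nucleus, made with Cell Ranger 3.1.0 against an mm10 (GRCm38) reference in which whole transcripts were counted, so unspliced RNA is included and long genes gain counts. Of 56780 barcodes, 54343 nuclei with 200 to 6000 genes, over 1000 UMIs and under 10% mitochondrial UMIs were kept. No doublet caller was run. The rule and gene lists were chosen with earlier results of these data known.

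Counts were summed over the *Deptor*+ nuclei of each library, since the mouse is the replicate, and tested with edgeR 4.0.16 (R 4.3.3; TMM, filterByExpr, quasi-likelihood test, Benjamini-Hochberg adjustment over all genes tested, threshold 0.05). Models were genotype alone, sex with genotype, their interaction, and genotype by class with library as a block. A standard error is the fold change over the root of F. Summed depth was 234399 to 616508 UMIs per library. Shares were compared with two-sided exact permutation tests (scipy 1.17.1), in which 4 against 4 cannot go below p = 0.0286. The labels name libraries by genotype, sex and number, and p-values measure the spread between them, which may in part be technical. Exact binomial intervals (95%) and floors (3 counts) cover counting error only.

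Named genes were all genotype calls, the rule's genes and *Ifnar1*, list members called or with the smallest p (up to 4), up to 8 sex calls per direction, up to 10 per interaction and the genes that most set the nuclei apart. Alternatives were DESeq2 1.42.0, RLE factors, no filter on low counts, other covariates, other *Deptor* limits, an *Etv1* requirement, thinning, no possible doublets (2 or more UMIs of another class's markers, or the top 5% of UMIs) and each library left out. Sex by class, the sexes within genotypes, the sex calls without possible doublets and leaving out the 2 smallest libraries were added after seeing the data. Coordinates are from GENCODE M21, matched by gene ID (31011 of 31053). The scripts were tested on simulated data. A few genes are not reported here. Same-numbered Wt and Ifnar1-/- libraries deviated together (correlations 0.191, 0.287, 0.296 and 0.152 for F1, F2, M1 and M2), as did other pairs of the same sex (0.135 to 0.444), so a block on the label was run as an alternative.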

Additional observations from a re-analysis of the deposited data

Results flagged for a closer look

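Among 148 groups of 4 libraries examined, 12 had 1 library set apart from the other 3 by a gap above Dixon's 95% critical value, and chance flags about 1 in 20 groups. Ifnar1-/- M2, the library with the fewest UMIs summed over its *Deptor*+ nuclei, was the one set apart in 5 of them, highest for *Ptpn11* (72.2 CPM), *4930445B16Rik* (63.7 CPM) and *Atp5o* (187 CPM) and lowest for *Gm27032* (63.7 CPM) and *Lmo4* (157 CPM). Wt M1 was highest for *Cntfr* (84.5 CPM) and lowest among males for *Pou3f2* (19.2 CPM). Among females Wt F1 was highest for *Vgf* (31.0 CPM) and *Jund* (4.89 CPM), Wt F2 for *Hcn2* (19.2 CPM) and Ifnar1-/- F2 for *Cplx2* (28.1 CPM). *Tsix*, the antisense partner of *Xist*, was found in 1 male library, Ifnar1-/- M1, at 1.78 CPM.

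Differences that themselves differed between groups were called by edgeR for *Abi3bp* between the sexes (3.52) and for *AC121788.1* (-1.13), *Tmprss9* (3.53) and *Ninj2* (3.49) between *Deptor*+ and other glutamatergic nuclei. The test of sex by class called 10 of 15684 genes (0.0638%). The male difference was more negative in *Deptor*+ nuclei for *Rmst* (-1.51), *Cdh13* (-0.93), *Reln* (-1.70), *Adarb2* (-1.17), *Zfp804b* (-0.56), *Syt10* (-3.36), *Cntn6* (-0.68), *March3* (-1.55) and *Gm45321* (-2.36), and more positive for *Cst3* (0.71). A single nucleus held 73 UMIs of *Reln*, 52 of *Adarb2* and 87 of *Cst3*.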

How the results depend on the processing

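Against 1 genotype call, 13 genes were called with no filter on low counts, 4 with *Deptor* at 1 or more UMIs, 2 within males, and 0 without possible doublets or without the 2 smallest libraries (edgeR). Leaving out 1 library gave 0 to 1. With the replicate block the genotype count was 1, as without it. For the share of *Deptor*+ nuclei the block gave an exact sign permutation p of 1.0, and 4 pairs cannot go below 0.125, so no call was possible there. Against 561 sex calls there were 271 by DESeq2, 93 within Wt, 89 within Ifnar1-/- mice and 260 without possible doublets, and 220 to 626 with 1 library left out. Without possible doublets 192 nuclei remained, 11 of them in Ifnar1-/- F2, and 4203 genes were tested against 6923. The interaction counts ran over 0 to 2 (by sex) and 4 to 16 (by class) with 1 library left out. The difference in share turned to 0.690 percentage points with *Deptor* at 1 or more UMIs (exact permutation p = 0.257) and ran from -0.299 to 0.158 with 1 library left out. The same ranges were -2211 to 1194 for median UMIs and -0.0769 to 0.135 for the mitochondrial share.

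Some genotype differences that were not called changed sign. With 1 library left out the log2 fold change ran from -0.29 to 0.018 for *Etv1*, -0.18 to 0.47 for *Herc6*, -0.15 to 0.040 for *Adar* and -0.22 to 0.13 for *Jak2*. Within females *Etv1* was 0.24, *Tyk2* 0.13, *Jak2* 0.20 and *Abi3bp* -0.58, and within males *Stat2* was -0.43 and *Egr1* 0.035. With *Deptor* at 1 or more UMIs *Stat2* was -0.23, *Tyk2* 0.12, *Mtor* -0.11 and *Abi3bp* -0.045. *Adar* was 0.15 with *Deptor* at 3 or more UMIs, 0.17 with *Etv1* required, 0.000226 without possible doublets and 0.039 after thinning. *Jak2* was 0.039 without possible doublets, *Mapkap1* -0.24 after thinning, and without the 2 smallest libraries *Herc6* was -0.063 and *Tyk2* 0.0079. The causes were not tested. With 23 to 48 nuclei a library, rare transcripts such as most interferon-response genes lay under what these sums can test.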
